A study of Mus musculus with 24 samples.

Results

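The RNA of macrophages and other myeloid cells was followed in mouse polycystic kidneys through 36 genes, which cover pan-leukocyte markers, growth factor and Fc receptors, markers of resident macrophages and markers of alternative activation. They were picked by gene symbol from a table of 54532 genes, all 36 symbols were found, and all 36 passed the expression limit of the test. The kidneys came from 24 mice of C57BL/6 J background aged 18 days. Each mouse had 1 copy of RC, a hypomorphic Pkd1 allele with a missense change. Noncystic mice (RC/+) had no Cre, and cystic mice (RC/-) carried a Ksp-Cre transgene that inactivates the other, floxed Pkd1 allele in tubule epithelium, so Cre and the cystic genotype cannot be told apart. D18 and D53 mice lacked the miR-17 microRNA motif in the 3′ UTR of RC, and each of these lines descends from 1 founder. In the paper's breeding scheme the same pair of parents could give both edited and unedited mice. The labels do not give the founder of the RC/+ and RC/- mice, which are called the unedited line below. There were 3 mice in each noncystic group (RC/+, RC/+ D18 and RC/+ D53) and 5 in each cystic group (RC/-, RC/- D18 and RC/- D53).

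Macrophages of the kidney sit in the interstitium between the tubules. Resident cells are kept alive by signals through Csf1r, and monocytes recruited from blood can join them after injury. Activating Fc receptors bind antibody-coated material and signal through the adaptor chain Fcer1g, while Tyrobp is an adaptor of other receptors such as Trem2. Scavenger receptors such as Mrc1, Cd163 and Msr1 take up glycoproteins, haemoglobin and modified lipoproteins. Lysosomal enzymes and pore-forming proteins break down what is engulfed. Macrophages are known to accumulate around cysts in polycystic kidney disease.

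Total counts were between 20.4 and 30.8 M per library. Levels are given as CPM, the count of a gene scaled to library totals, in counts per M. A gene passed where its p from limma-trend, adjusted by Benjamini-Hochberg over 22570 genes, was below 0.05. Libraries 20 to 27 (3 of RC/- D18 and the 5 of RC/- D53) stood apart by high counts of skeletal muscle genes, whose summed level reached 146.7 to 193.9 CPM in RC/- D53 and stayed between 5.27 and 9.36 CPM in all noncystic and all RC/- libraries. This set was seen in the counts, and its part in the results below was not tested beyond the fits that include it as a covariate or leave it out. Pkd1 itself averaged 50.7 ± 0.803 CPM without and 59.0 ± 5.76 CPM with cystic disease in the unedited line (SD, n = 3 and 5; log2 fold change 0.21, adjusted p = 0.173), and whole-gene counts do not separate its alleles.

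The label of the list comes from its gene symbols, and counts alone do not show which cells made the RNA. All 36 genes had counts, and in noncystic RC/+ kidneys the highest levels per kilobase of exon were those of Lgals3 (34.2 ± 2.18 CPM per kb), Lyz2 (32.6 ± 5.78 CPM per kb) and Ctss (29.3 ± 1.14 CPM per kb; SD, n = 3 each), with libraries of Lgals3 and Lyz2, and of Lyz2 and Ctss, overlapping. Csf1r followed at 16.1 ± 0.236 CPM per kb, then Tyrobp at 13.01 ± 1.11 CPM per kb. The monocyte and macrophage marker Adgre1 was at 3.40 ± 0.421 CPM per kb, within the spread of its neighbours Fcgr2b and Cd53. The lowest were Msr1, Arg1 and Gpnmb, at 0.196, 0.161 and 0.101 CPM per kb. Lgals3 is also made by tubule epithelium, Lyve1 by lymphatic endothelium and Fcgr2b by B cells and some endothelium, so these members are less specific than Adgre1 or Csf1r.

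Summed over the 36 genes, noncystic kidneys had 508.1 ± 13.95 CPM without an edit, 513.6 ± 19.6 CPM in the D18 line and 501.4 ± 30.6 CPM in the D53 line (SD, n = 3 each). Cystic kidneys had 1459 ± 333.1 CPM without an edit, 628.6 ± 22.2 CPM with the D18 deletion and 767.9 ± 84.2 CPM with the D53 deletion (SD, n = 5 each). Every RC/- library, from 1104 to 1869 CPM, lay above every library of the other groups, the highest of which had 892.2 CPM. Lgals3 and Lyz2 made up much of this sum, and without both the mean was 401.7 CPM for RC/+, 903.4 for RC/-, 492.5 for RC/- D18 and 561.1 for RC/- D53.

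**Figure D1:**
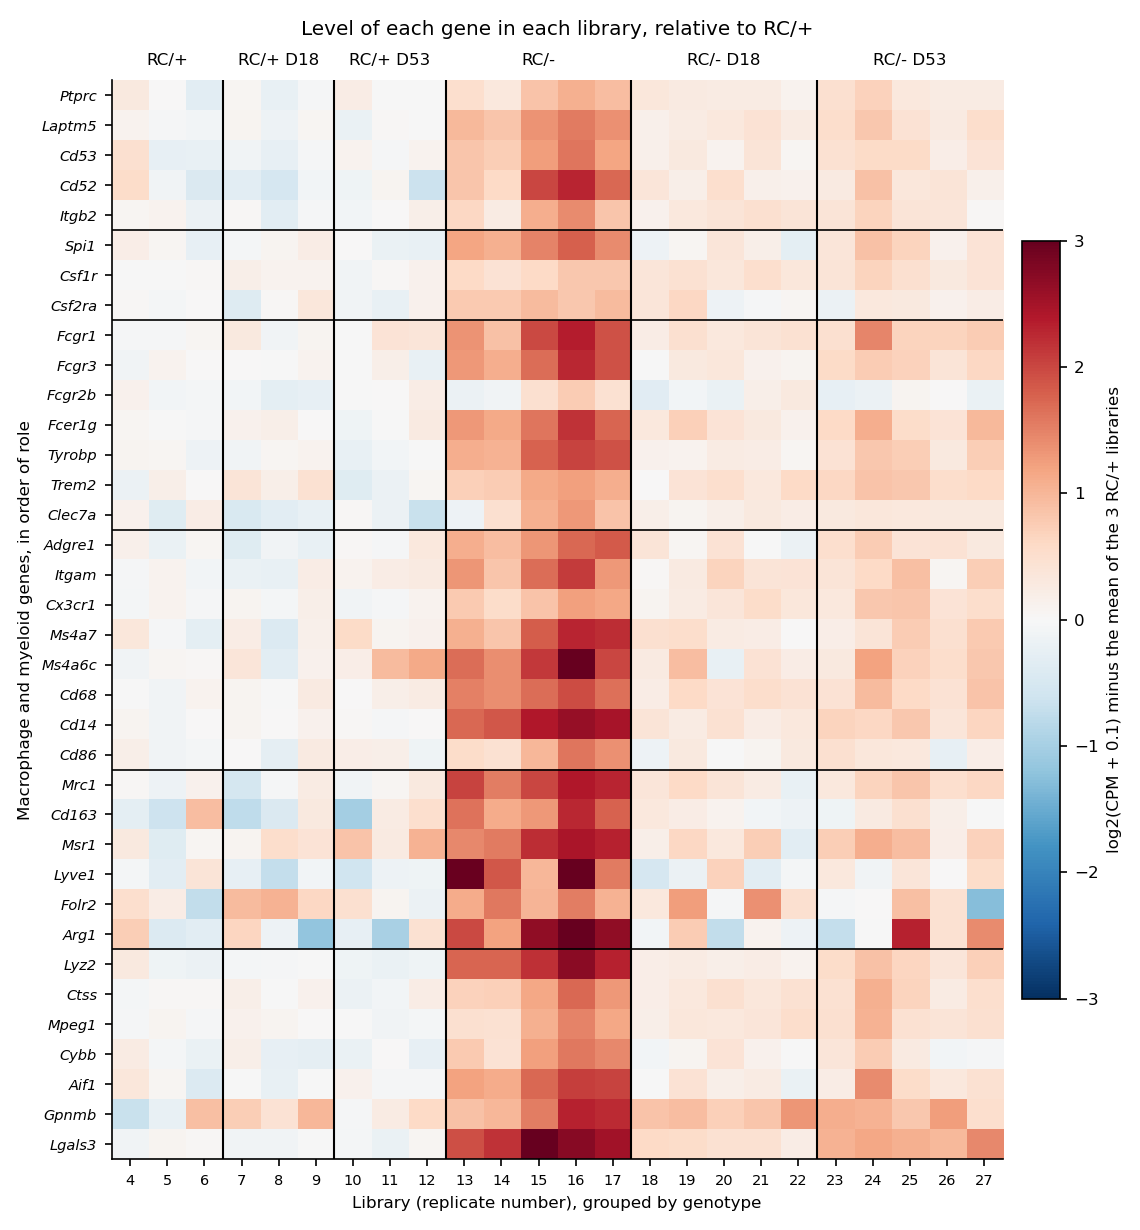
Level of each of the 36 genes (rows, in order of role) in each of the 24 libraries (columns, by group), as log2(CPM + 0.1) minus the mean of the 3 RC/+ libraries, with colours capped at 3 in either direction. The 5 RC/- libraries are high for nearly every gene, replicates 13 and 14 less so than 15 to 17, while Fcgr2b shows little difference.

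Setting RC/- beside RC/+ kidneys addresses what differs with cystic disease when the miR-17 motif is intact. Of the 36 genes, 35 were higher in RC/- and none was lower. Among all genes tested 25.5% were higher in this comparison. Adjusted p-values of the 35 genes ran from 2.58e-11 to 0.0162. The median log2 fold change of the 36 genes was 1.47 beside 0.14 for all genes. Scaling by TMM factors in place of total counts moved the median of all genes to 0.01 and that of the 36 genes to 1.34, so the distance between them was 1.33 and 1.32 log2 units. In bulk kidney, more macrophages and more RNA of these genes per macrophage cannot be told apart. For 33 of the 36 genes every RC/- library was above every RC/+ library, which was true of 26% of all genes tested, and the exceptions were Fcgr2b, Clec7a and Gpnmb.

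The 5 pan-leukocyte genes were all higher, with log2 fold changes between 0.74 and 1.49. Ptprc, the phosphatase CD45 found on all white blood cells, had 16.6, 13.7 and 10.9 CPM in RC/+ and 19.3, 16.8, 24.7, 28.5 and 25.6 CPM in RC/- replicates 13 to 17. The groups did not overlap, but replicate 14 of RC/- was close to the highest RC/+ library (log2 fold change 0.74, adjusted p = 0.000364). Laptm5, a lysosomal membrane protein of blood cells, went from 25.2 ± 1.77 to 59.6 ± 11.9 CPM. Cd52, a small glycoprotein of leukocyte surfaces, changed most in this set (log2 fold change 1.49), with 14.5% of its exon bases overlapping Crybg2 on the opposite strand. The tetraspanin Cd53 rose by 1.13 and the integrin chain Itgb2, which pairs with Itgam, by 0.84 on the log2 scale.

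Spi1 encodes PU.1, the transcription factor that sets up the myeloid lineage. Its levels were 7.27, 6.59 and 5.34 CPM in RC/+ and 14.5, 13.4, 17.9, 22.3 and 17.2 CPM in RC/-, which is higher by 1.39 on the log2 scale (SE 0.17, adjusted p = 8.74e-07). Csf1r, the receptor for the growth factors Csf1 and Il34, had 92.5, 92.0 and 94.5 CPM in RC/+ and 139.7, 125.1, 140.7, 162.7 and 163.7 CPM in RC/-. The RC/+ libraries were almost alike and all RC/- libraries exceeded them, yet this was the smallest log2 fold change among the changed genes (0.65, SE 0.08, adjusted p = 1.6e-06). Csf2ra, the binding chain of the GM-CSF receptor, went from 26.8 ± 0.997 CPM in RC/+ up to 48.5 ± 2.90 CPM. Of the exon bases of Csf1r, 15.1% overlap Hmgxb3 on the opposite strand. If strand was not used in counting, reads on these bases cannot be assigned to 1 of the genes.

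PU.1 is known to bind purine-rich DNA around the letters GAGGAA, so the promoters of the genes were searched for these letters on both strands. RefSeq promoter windows of GRCm38.p6, each from 250 bases before to 50 after a start site, were given for 25 of the 36 genes. Lyve1, Spi1, Adgre1, Arg1, Tyrobp, Csf1r, Cd14, Itgb2, Cd52, Cd86 and Msr1 had no entry. A match was found for 15 of the 25 genes (60%), and for 31.3% of all 27025 genes with a window. A match describes these letters and is no evidence of binding. One match is shown for 6 of the genes, the member of each role with the largest fold change among those with a match before the start site, as 30 bases of the gene's own strand with the match in capitals (TTCCTC where it lies on the opposite strand).
Laptm5, chr4:130913266-130913295, plus strand: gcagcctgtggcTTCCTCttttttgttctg
Csf2ra, chr19:61228419-61228448, minus strand: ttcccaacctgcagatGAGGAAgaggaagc
Fcgr1, chr3:96294007-96294036, minus strand: atggcaacttccTTCCTCttttctaatctt
Cd68, chr11:69666378-69666407, minus strand: tttcttaccaatGAGGAAagggcttcccat
Mrc1, chr2:14229367-14229396, plus strand: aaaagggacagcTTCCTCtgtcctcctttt
Aif1, chr17:35176053-35176082, minus strand: tagccgtggtgataggcacccagTTCCTCc
The match ended 33 bases before the start site in Laptm5, 9 in Csf2ra, 50 in Fcgr1, 220 in Cd68, 30 in Mrc1 and 2 in Aif1.

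Of the 7 Fc receptors, adaptors and partners, 6 were higher. Fcgr1, the high-affinity receptor for IgG, and Fcgr3, a low-affinity activating receptor, rose by 1.70 and 1.65 on the log2 scale. Fcgr3 had 9.76, 11.2 and 10.5 CPM in RC/+ and 25.95, 22.3, 33.9, 50.6 and 39.8 CPM in RC/-. The adaptors moved alongside, with log2 fold changes of 1.59 for Fcer1g and 1.57 for Tyrobp. Fcgr2b, the inhibitory member of the family, stood out: it had 22.5, 19.4 and 19.8 CPM in RC/+ and 18.3, 19.1, 28.7, 34.8 and 28.3 CPM in RC/-. Its 2 lowest RC/- libraries were below every RC/+ library, and the log2 fold change was 0.29 (SE 0.17, adjusted p = 0.182). Without RC/- replicate 13 it was 0.40 with an adjusted p of 0.0485, and over all alternatives the adjusted p was 0.0485 to 0.556. Trem2, a lipid receptor that signals through Tyrobp, rose by 0.99. Clec7a, the beta-glucan receptor dectin-1, rose by 0.71 (adjusted p = 0.0162). Its groups overlapped, and the call was lost without RC/+ replicate 5 (adjusted p = 0.122), with TMM factors (0.0581) and with only the compared groups in the model (0.0972), over a range of 0.000458 to 0.122 for all alternatives.

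All 8 surface markers of macrophages and monocytes were higher. Adgre1, the antigen F4/80 by which mouse macrophages are recognised, had 12.2, 9.51 and 11.4 CPM in RC/+ and 23.3, 20.9, 27.5, 36.6 and 39.6 CPM in RC/-, with no overlap (log2 fold change 1.38, SE 0.18, adjusted p = 1.1e-06). Cd14, a co-receptor for bacterial lipopolysaccharide that injured tubule cells can also make, rose most in this set: it had 12.1, 10.5 and 11.5 CPM in RC/+ and 37.6, 41.1, 59.97, 69.9 and 63.4 CPM in RC/- (log2 fold change 2.21, SE 0.15, adjusted p = 6.64e-11). Cd68, a lysosomal glycoprotein, went from 7.16 ± 0.558 to 22.7 ± 3.36 CPM. The chemokine receptor Cx3cr1 and the costimulatory ligand Cd86 rose by 0.92 and 1.004 on the log2 scale. Ms4a7 and Ms4a6c, membrane proteins of macrophages and monocytes, rose by 1.65 and 2.08. Itgam, the integrin chain CD11b, rose by 1.45. A second gene model on the same strand, Gm49368, covers 68.7% of the exon bases of Itgam, and counting that drops reads shared by 2 genes would lower its level in every library. Antisense models overlap 53.1% of the exon bases of Ms4a6c.

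The 6 scavenger and alternative activation genes held the highest median log2 fold change of the roles, 2.03, and all were higher. Mrc1, the mannose receptor CD206, had 13.2, 11.6 and 14.2 CPM in RC/+ and 52.9, 37.6, 52.2, 69.4 and 63.3 CPM in RC/- (log2 fold change 2.05, SE 0.19, adjusted p = 7.42e-09). Msr1, the class A scavenger receptor, rose by 2.01. Cd163, the receptor for haemoglobin bound to haptoglobin, rose by 1.62 although RC/+ replicate 6, at 6.90 CPM, was more than 2 times the other RC/+ libraries (2.94 and 2.30 CPM). Lyve1, a hyaluronan receptor of some resident macrophages, had 1.35, 1.11 and 1.89 CPM in RC/+ and 11.7, 5.45, 2.90, 12.01 and 4.34 CPM in RC/- (log2 fold change 2.09, SE 0.36, adjusted p = 5.75e-05). Its RC/- libraries were in another order than those of most genes, with replicate 13 nearly as high as replicate 16.

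Arg1, the arginase by which alternatively activated macrophages are often recognised, had the largest log2 fold change of all 36 (2.65) and the widest error (SE 0.64, adjusted p = 0.00202). It had 0.613, 0.221 and 0.241 CPM in RC/+, against 1.58, 0.887, 2.58, 9.24 and 2.61 CPM in RC/-. RC/- replicate 16 was far above the other RC/- libraries. Without single replicates or under other settings its log2 fold change lay between 2.18 and 3.12. Folr2, the folate receptor of resident macrophages, was low everywhere, with a mean of 0.433 ± 0.211 CPM in RC/+ that reached 1.11 ± 0.236 CPM in RC/- (log2 fold change 1.29, adjusted p = 0.0146). Its call was lost without RC/+ replicate 6 (adjusted p = 0.131, the highest of all alternatives, which began at 0.0124), and 63.1% of its exon bases overlap Gm10602 on the opposite strand.

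All 7 lysosomal and other effector genes were higher. Lyz2, the lysozyme of myeloid cells, had 51.7, 39.2 and 37.9 CPM in RC/+ and 142.3, 142.4, 193.3, 276.7 and 209.3 CPM in RC/-, with no overlap (log2 fold change 2.13, SE 0.15, adjusted p = 1.75e-10). Lgals3, the galectin linked to phagocytosis and fibrosis, had 58.9, 66.6 and 65.0 CPM in RC/+ and 240.6, 287.4, 504.3, 421.1 and 361.2 CPM in RC/-. It had the smallest adjusted p of the 36 genes (log2 fold change 2.47, SE 0.15, adjusted p = 2.58e-11). The calcium-binding protein Aif1, known as Iba1, rose by 1.63, the lysosomal protease Ctss by 1.12, the NADPH oxidase subunit Cybb by 1.09 and the pore-forming protein Mpeg1 by 0.93. Gpnmb, a glycoprotein of lipid-laden macrophages, rose by 1.62 from 0.659 ± 0.445 CPM, and its groups overlapped.

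**Figure D2:**
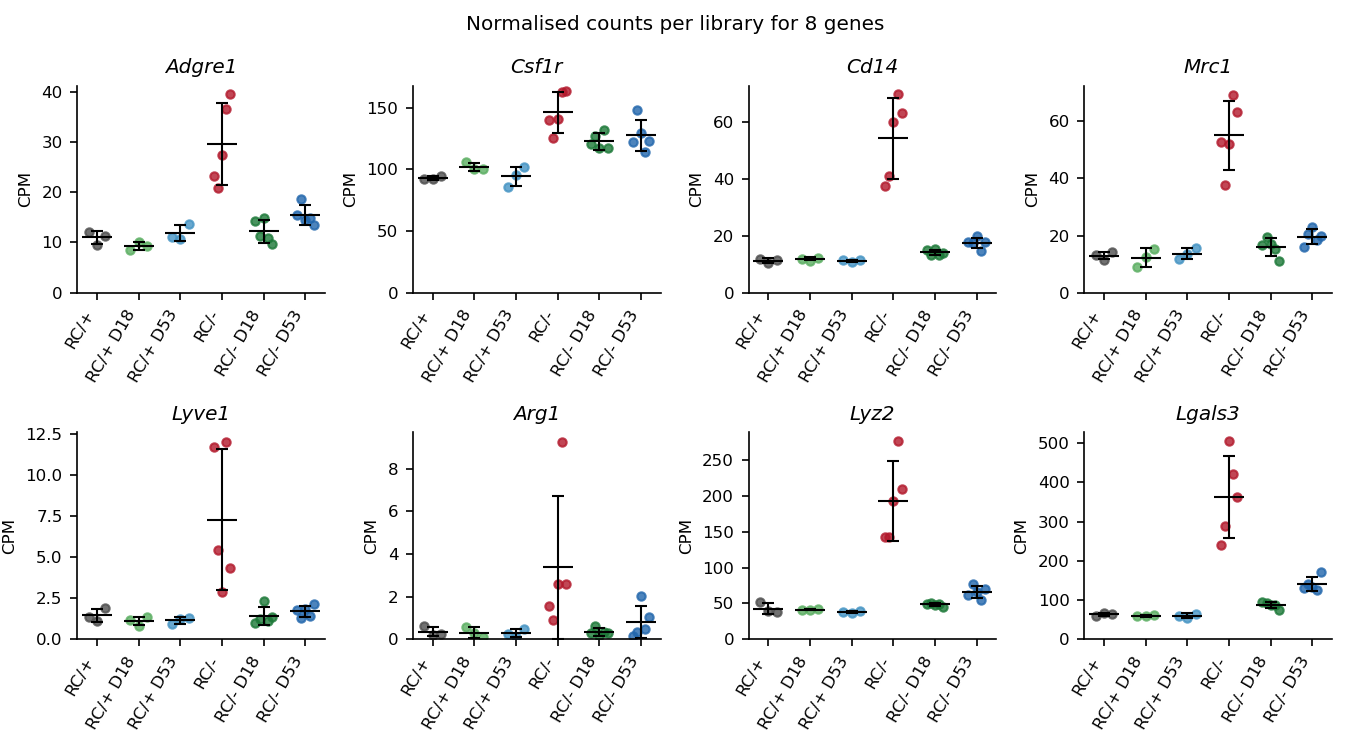
CPM of 8 genes in each library (points) by group, with the group mean and SD (bars; n = 3 noncystic and 5 cystic mice per group, axes from 0). All 5 RC/- libraries lie above the RC/+ libraries for each of the 8 genes, and for Arg1 replicate 16 at 9.24 CPM carries much of the RC/- mean.

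Set against Adgre1 in the same library, the genes did not all change in step. The log2 ratio of each gene's counts to those of Adgre1 was taken in every RC/+ and RC/- library, as a description. It was higher in every RC/- library than in every RC/+ library for 5 of the other 35 genes, namely Lgals3 (by 1.08), Cd14 (0.84), Lyz2 (0.75), Msr1 (0.68) and Mrc1 (0.67), and 1.11% of all genes tested did the same. It was lower in every RC/- library for 8 genes, with 66.6% of all genes doing so, since most genes changed less than Adgre1. These 8 were Fcgr2b (-1.09), Csf1r (-0.74), Clec7a (-0.66), Ptprc (-0.65), Itgb2 (-0.54), Csf2ra (-0.53), Cx3cr1 (-0.47) and Mpeg1 (-0.45). Spi1 kept nearly the same mean ratio to Adgre1 (difference 0.02).

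**Figure D3:**
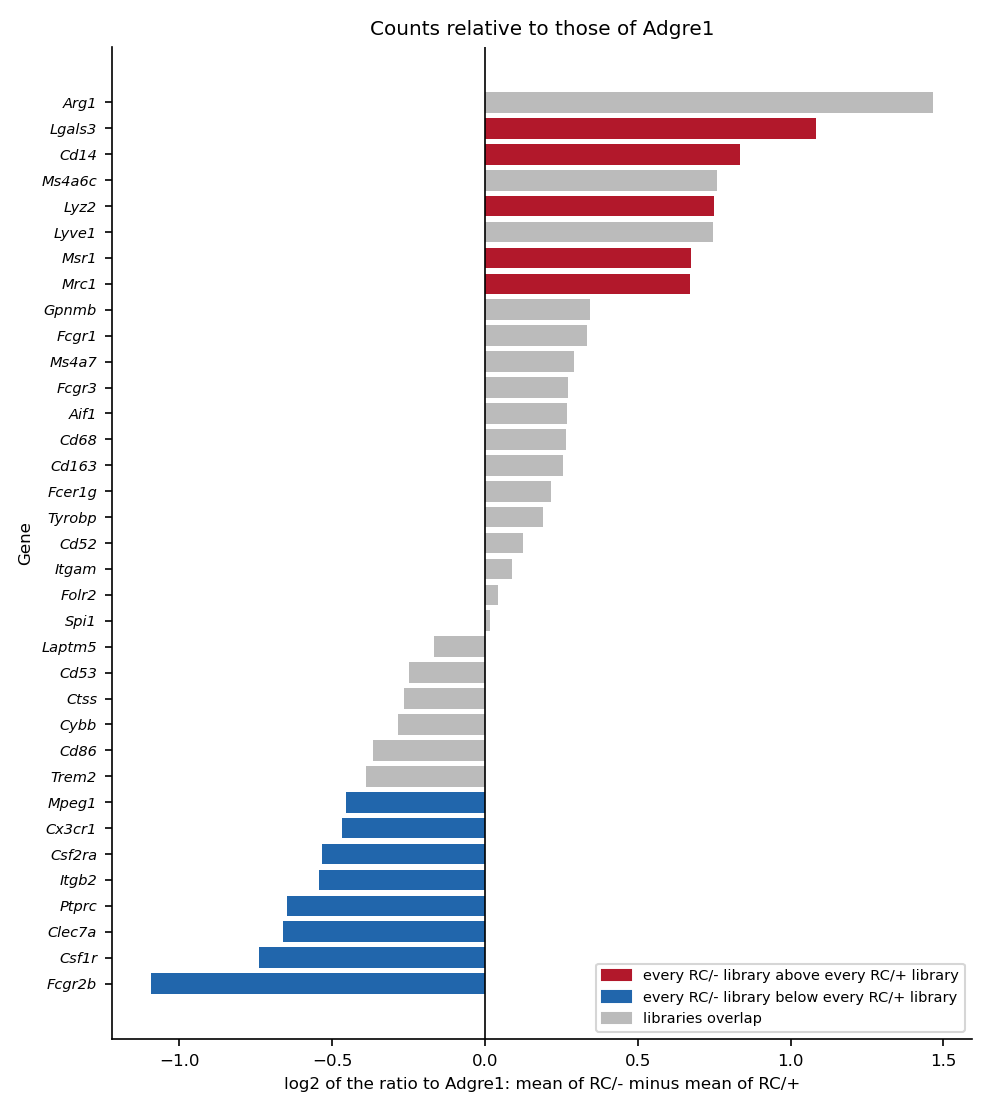
Difference between the mean log2 ratio to Adgre1 in RC/- (n = 5) and in RC/+ (n = 3) for the other 35 genes; colours mark ratios whose libraries did not overlap between groups. Lgals3, Cd14, Lyz2, Msr1 and Mrc1 gained on Adgre1, and Fcgr2b and Csf1r fell behind it most.

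The RC/- mice differed among themselves in a pattern that most genes shared. Replicate 16 had the highest level of its group for 31 of the 36 genes, and replicate 14 the lowest for 25 and replicate 13 for 9. The summed level of the 36 genes was 1127 and 1104 CPM in replicates 13 and 14 and 1616, 1869 and 1580 CPM in replicates 15, 16 and 17. Tubule genes varied beside it. The summed level of 10 tubule injury genes was 4965 and 6490 CPM in replicates 13 and 14 and 9465, 8512 and 8784 CPM in replicates 15 to 17, and that of 10 proximal tubule genes was 4179, 4791, 3884, 2026 and 2542 CPM in the same order. The part of tubule loss in the myeloid levels was not tested.

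Other genes of myeloid cells, from a further list of 50, moved alongside: 43 were higher and 5 lower in RC/- (median log2 fold change 1.23), where 12.2% of all genes were lower. By the fitted fold change, which for a gene at 0 depends on the prior count, the leading gene was Vsig4, a complement receptor of resident macrophages. It had 0 counts in all RC/+ libraries and 6 to 24 counts in RC/-, at least 4.08-fold higher when 3 counts are allowed per RC/+ library. Outside RC/- it had 0 to 2 counts per library. It therefore passed the expression limit only through RC/-, and its values are given as a description. Lists for other white blood cells were counted against the same 25.5% of all genes higher and 12.2% lower. Of 13 T cell genes, 1 was higher and 1 lower, with Cd8a lower by 1.85 on the log2 scale. Cd8a had 53 to 95 counts per library in RC/+ and 12 to 28 in RC/-. The T cell gene Cd3e, named after its values were seen, had only 1 to 3 and 0 to 6. Which cells gave the Cd8a counts was not tested. Of 10 B cell genes, 2 were higher and 1 lower, led by Ighm (log2 fold change 1.09). Of 10 dendritic cell genes, 3 were higher, led by Clec10a (1.74), a lectin that macrophages also carry. The neutrophil list had 1 higher of 9 tested, Mmp8, with 0 or 1 counts per library in RC/+ and 4 to 13 in RC/-. None of the 7 NK cell or 5 mast cell genes tested changed. Klrk1, the most abundant NK cell gene, averaged 0.178 ± 0.271 CPM in RC/+, against 0.350 ± 0.465 CPM in RC/-, and Ms4a2, the most abundant mast cell gene, at 1.29 ± 0.208 and 0.791 ± 0.271 CPM.

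**Figure D4:**
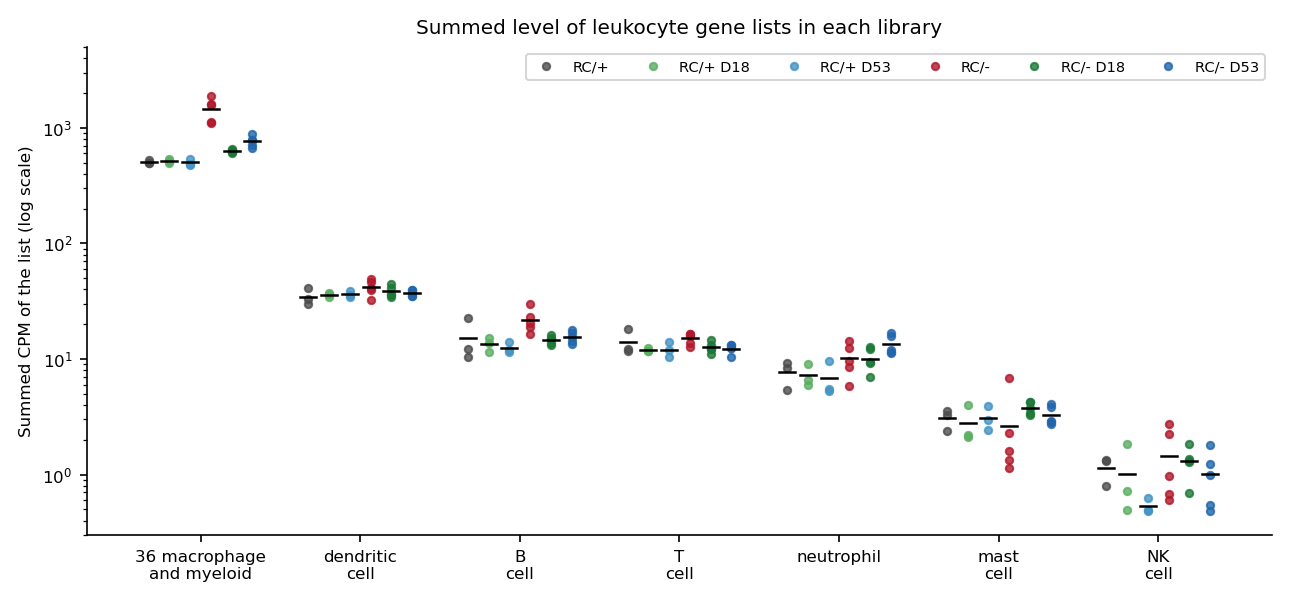
Summed CPM (log axis) of the 36 macrophage and myeloid genes and of 6 lists of genes of other white blood cells in each library (points), with the mean of each group (black lines; n = 3 noncystic and 5 cystic mice per group). The 36 genes reach 1104 to 1869 CPM in RC/-, while the summed T cell genes are between 10.3 and 18.05 CPM in all 24 libraries.

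Tissue markers moved too. All 10 proximal tubule genes were lower in RC/-, led by the lactate transporter Slc5a12, and 8 of 10 tubule injury genes were higher, led by Lcn2 at a log2 fold change of 5.65. Of 8 endothelial genes 5 were lower, led by the angiopoietin receptor Tek (log2 fold change -0.71). Lymphatic endothelium, which also makes Lyve1, was represented by 5 genes in the table. Of these, Pdpn was higher (log2 fold change 2.13) and Prox1 lower, and Flt4 ranged from 17.25 to 24.01 CPM in RC/+ and from 16.2 to 25.9 CPM in RC/- (Prox1 and Flt4 were named after their values were seen). The median log2 fold change of the 5 was -0.016, and which kidney cells gave their counts was not tested. Of 7 erythroid genes, 1 was lower, Slc4a1 (log2 fold change -2.29), which intercalated cells of the collecting duct also express. The 6 skeletal muscle genes did not pass the test, and the most abundant, Acta1, averaged 5.96 ± 1.41 CPM in RC/+, against 6.58 ± 1.09 CPM in RC/-. The part of these markers in the myeloid difference was not tested.

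The motif deletion in cystic kidneys was assessed against the same RC/- libraries, which therefore serve both in this comparison and in that with RC/+. In RC/- D18, 33 of the 36 genes were lower than in RC/- and none was higher, with 26.9% of all genes lower. Adjusted p-values of the 33 genes were 8.23e-11 to 0.0377. The median log2 fold change was -1.22, beside -0.10 for all genes (-1.10 and 0.00 with TMM factors). For 28 genes every RC/- D18 library was below every RC/- library, which 18.8% of all genes showed. The 3 genes not past the threshold were Fcgr2b (-0.32), Folr2 (-0.58) and Gpnmb (-0.66). Without libraries 20 to 22 of RC/- D18 and the RC/- D53 libraries, 28 genes passed, and the median of the 36 was -1.15.

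The levels in RC/- D18 were close together. Adgre1 had 14.2, 11.4, 14.9, 10.9 and 9.67 CPM in RC/- D18 replicates 18 to 22, all below the lowest RC/- library at 20.9 CPM (log2 fold change -1.24, adjusted p = 5.31e-07). Cd14 had 14.9, 13.4, 15.5, 13.3 and 14.1 CPM, where RC/- began at 37.6 CPM (log2 fold change -1.89). Mrc1 had 16.7, 19.6, 17.1, 15.3 and 11.1 CPM, where RC/- began at 37.6 CPM (-1.78). Lyz2 had 48.8, 50.3, 48.2, 49.9 and 45.7 CPM, beside an RC/- mean of 192.8 CPM (-1.94). Lgals3 had 96.0, 92.6, 86.5, 87.8 and 74.6 CPM (-2.01). Lyve1 had 0.964, 1.25, 2.35, 1.12 and 1.35 CPM (-2.16), and only replicate 20 came near the lowest RC/- library. Csf1r, at 117.0 to 132.3 CPM, overlapped the RC/- range and had the smallest change among the genes that passed (-0.25, adjusted p = 0.00859). With TMM factors it was -0.13 and no longer passed (adjusted p = 0.177, the highest of its alternatives, which began at 0.00154). Clec7a (-0.52, adjusted p = 0.0377) lost its call in 12 of 18 alternatives, over adjusted p-values of 0.00108 to 0.186. Csf1r lost its call in 5 of the 18, Itgb2 in 3, and Ptprc and Csf2ra in 2 each.

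In RC/- D53, 31 of the 36 genes were lower than in RC/- and none was higher, with 18.9% of all genes lower. The median log2 fold change was -0.90, beside -0.08 for all genes, and adjusted p-values of the 31 genes were 6.88e-09 to 0.0464. For 19 genes every RC/- D53 library was below every RC/- library, as for 11.8% of all genes. The 5 genes not past the threshold were Ptprc, Trem2, Clec7a, Mpeg1 and Gpnmb, with log2 fold changes of -0.33, -0.31, -0.40, -0.36 and -0.66. Csf1r (-0.20) and Fcgr2b (-0.40) passed narrowly and lost their calls in 14 and 12 of 17 alternatives, with adjusted p-values of 0.00995 to 0.48 and 0.00677 to 0.142. Cx3cr1 (-0.34) lost its call in 11 of the 17, over 0.00587 to 0.126, and Itgb2 (-0.47) in 6, over 0.00181 to 0.166. The scavenger and alternative activation genes were again the role with the largest median change, -1.46, and all 6 passed. With the set of libraries 20 to 27 as a covariate only 11 genes passed, while the median log2 fold change of the 36 stayed at -0.90. In that fit the D53 libraries are compared through RC/- D18, which has libraries inside and outside the set.

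Cd14 had 17.9, 17.6, 19.8, 14.6 and 17.8 CPM in RC/- D53 replicates 23 to 27 (log2 fold change against RC/- -1.59, adjusted p = 6.88e-09). Lyz2 had 62.4, 77.6, 66.5, 54.5 and 70.2 CPM (-1.50), and Mrc1 had 16.1, 20.5, 23.1, 18.5 and 19.9 CPM (-1.47), all below every RC/- library. Lgals3 had 131.1, 142.1, 133.4, 124.7 and 171.7 CPM (-1.33), between the noncystic and the RC/- range. Adgre1, with 15.5, 18.7, 14.5, 14.8 and 13.5 CPM, changed by -0.90. Trem2 had 11.6, 13.7, 13.2, 10.9 and 11.4 CPM, which overlapped its RC/- range of 12.4 to 17.8 CPM. Replicate 24 was the highest of the RC/- D53 libraries for 22 of the 36 genes and replicate 26 the lowest for 19. Of 7 erythroid genes, 6 were higher in RC/- D53 than in RC/- (11.3% of all genes were higher), and the summed erythroid level was 469.7 to 1336 CPM beside 245.8 to 455.6 CPM in RC/-. The part of blood in the myeloid levels of RC/- D53 was not tested.

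Among the 50 further myeloid genes, 44 were lower and 5 higher in RC/- D18 (14.3% of all genes were higher), and 38 were lower and 5 higher in RC/- D53. Vsig4, which passed the expression limit only through RC/-, was at 0 to 1 counts in RC/- D18 and 0 to 2 in RC/- D53. In both comparisons all 10 proximal tubule genes were higher and all 10 tubule injury genes lower.

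Fold changes within each edited line rest on the libraries of that line, while the spread behind their tests was estimated over all 24 libraries. In the D18 line, none of the 36 genes passed between RC/- D18 and RC/+ D18 by limma-trend, edgeR or DESeq2, where 0.261% of all genes were higher. Without adjustment 7 had a p below 0.05, and the smallest adjusted p was 0.208. The fold changes were positive for 33 of the 36 genes, with a median of 0.27 beside 0.04 for all genes. For 12 genes every RC/- D18 library was above every RC/+ D18 library, as for 3.85% of all genes: Ptprc, Laptm5, Cd53, Cd52, Itgb2, Csf1r, Clec7a, Cd14, Lyz2, Ctss, Mpeg1 and Lgals3. Lgals3 had 59.0, 58.9 and 62.8 CPM in RC/+ D18, all below the 74.6 to 96.0 CPM of RC/- D18 (log2 fold change 0.53). Lyz2 had 41.1, 41.5 and 41.9 CPM in RC/+ D18, just under the 45.7 to 50.3 CPM of RC/- D18 (0.23). Spi1 had a log2 fold change of -0.05 and Msr1 of -0.04.

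In the D53 line, 11 of the 36 genes were higher in RC/- D53 than in RC/+ D53 and none was lower, where 2.45% of all genes were higher. The median log2 fold change of the 36 was 0.54 beside 0.04 for all genes. The 11 were Lgals3 (log2 fold change 1.21), Trem2 (0.84), Lyz2 (0.78), Tyrobp (0.70), Fcer1g (0.68), Mpeg1 (0.62), Cd14 (0.62), Cx3cr1 (0.59), Laptm5 (0.56), Cd68 (0.51) and Csf1r (0.43), with adjusted p-values of 4.71e-05 to 0.0472. For 22 genes the groups did not overlap, as for 8.12% of all genes. Lgals3 had 60.5, 54.8 and 65.7 CPM in RC/+ D53, all below the 124.7 to 171.7 CPM of RC/- D53. Trem2 had 5.85, 6.71 and 7.80 CPM in RC/+ D53, below every RC/- D53 library. None of the 6 scavenger and alternative activation genes passed, and Mrc1 differed by 0.51 on the log2 scale (adjusted p = 0.184). Adgre1 had 11.2, 10.6 and 13.6 CPM in RC/+ D53, overlapped RC/- D53 by 1 library and differed by 0.38 on the log2 scale (adjusted p = 0.346).

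This count depended on single libraries and on the set of libraries 20 to 27. It was 4 without RC/+ D53 replicate 10, 5 without replicate 11 or 12 of RC/+ D53 or replicate 25 of RC/- D53, and 7 without replicate 24 or 27 of RC/- D53. With the set as a covariate only Lgals3 passed. Lgals3 passed under every alternative, with a log2 fold change of 1.14 to 1.40. Among the 50 further myeloid genes, 4 were higher in RC/- D53 than in RC/+ D53, led by the complement receptor C5ar1, which was named after its values were seen, and none passed in the D18 line.

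**Figure D5:**
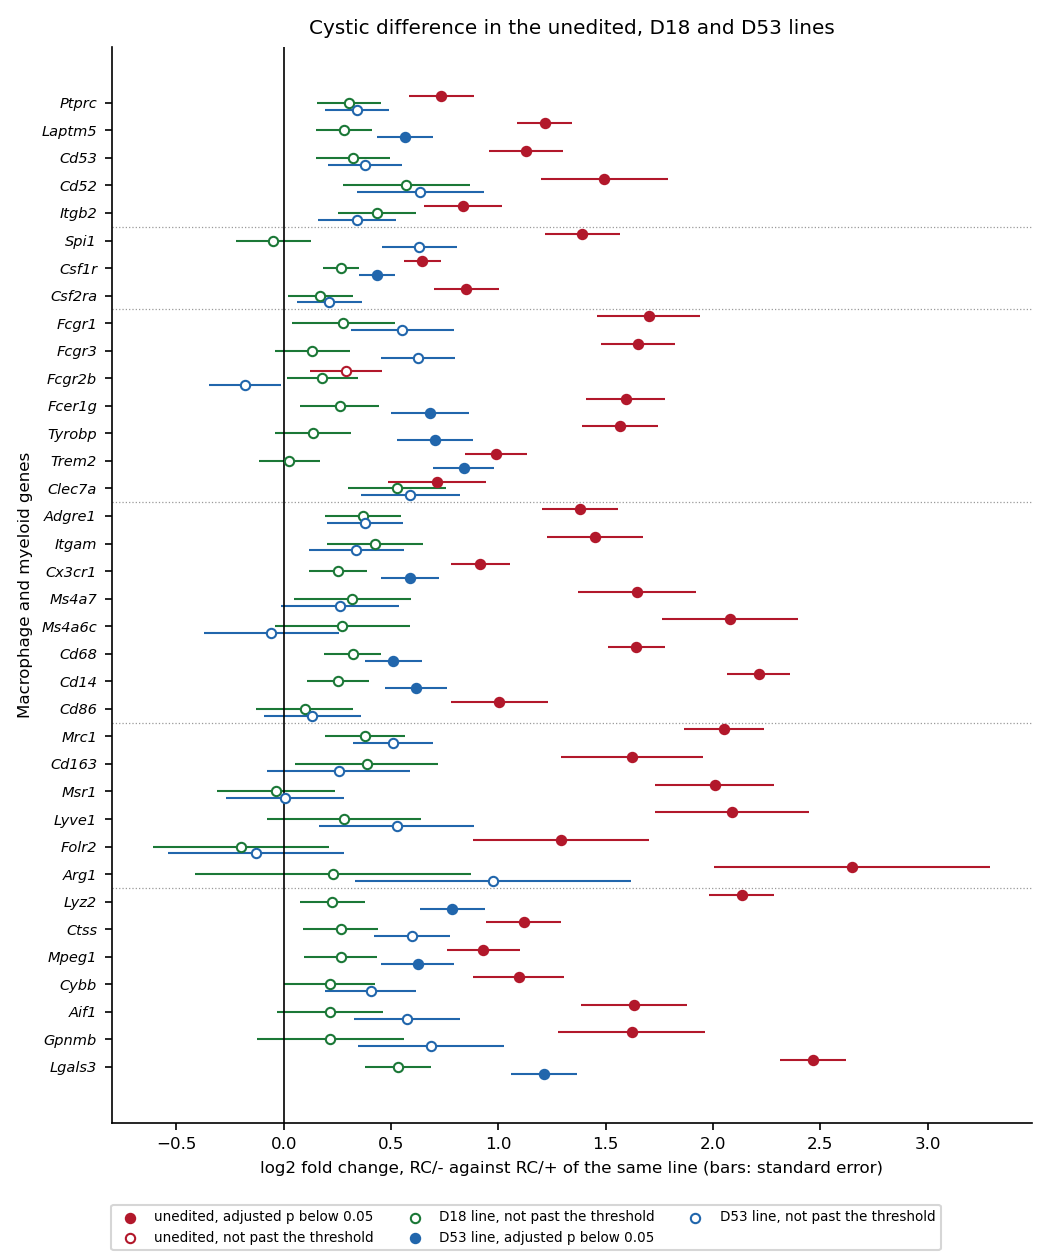
Log2 fold change of RC/- against RC/+ for each of the 36 genes in the unedited, D18 and D53 lines, with standard errors; filled points passed the adjusted p threshold. The unedited differences, with a median of 1.47, lie right of those in the D53 line (median 0.54) and the D18 line (median 0.27) for most genes. In the D53 line 11 points are filled and in the D18 line none.

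Whether the cystic difference was equal in the edited and unedited lines was tested by an interaction contrast, in which a negative value means a smaller difference in the edited line. For D18, 26 of the 36 genes had a lower difference, where 10.8% of all genes did, and the median was -1.28. For D53, 18 of the 36 genes had a lower difference, where 6.55% of all genes did, and the median was -0.92. The lowest adjusted p was that of Cd14 in D18 (1.58e-06, interaction -1.96 log2 units) and in D53 (8.29e-05, -1.60). With the set of libraries 20 to 27 as a covariate the counts were 19 for D18 and 3 for D53. As a share of the unedited log2 fold change, that in the D18 line had a median of 19.4% over the 36 genes and that in the D53 line 36.8%. For Trem2 the shares were 2.6% and 84.8%, for Lgals3 21.6% and 49.3%, and for Adgre1 26.7% and 27.5%. Each share also depends on the noncystic group of its line. The log2 fold change of Trem2 against RC/+ was 0.34 in RC/+ D18 and -0.16 in RC/+ D53, and neither passed. Between RC/- D53 and RC/- D18 it was 0.31, which did not pass either.

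In direct comparison of the edited cystic groups, Lgals3 was the 1 gene of the 36 that passed between RC/- D53 and RC/- D18, where 0.244% of all genes were higher. It was higher in every RC/- D53 library, by 0.68 on the log2 scale (SE 0.13, adjusted p = 0.023). Without RC/- D18 replicate 22, RC/- D53 replicate 25 or RC/- D53 replicate 27 the adjusted p rose to 0.0907, 0.0594 and 0.0861, within a range of 0.00178 to 0.0907 over all alternatives. Trem2, at 7.58 to 11.4 CPM in RC/- D18, overlapped RC/- D53. Among 10 tubule injury genes, 2 were higher in RC/- D53 than in RC/- D18 and none was lower. Against RC/+ D53, 4 of the 10 were higher in RC/- D53 and none was lower, where 2.45% of all genes were higher. The part of tubule epithelium in the level of Lgals3 was not tested.

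In noncystic kidneys the deletion moved none of the 36 genes past the threshold. Between RC/+ D18 and RC/+ the number was 0 by limma-trend, edgeR and DESeq2, with 1 gene at an unadjusted p below 0.05, where 0.00443% of all genes passed. Between RC/+ D53 and RC/+ it was 0 by the 3 tools, with 2 genes at an unadjusted p below 0.05, where 0.0% of all genes passed. The median log2 fold changes of the 36 genes were 0.00 and 0.01. With 3 mice per group the median standard error was 0.20 log2 units. The largest log2 fold changes, 0.906 for D18 and 0.775 for D53, did not pass, so differences of that size could go undetected.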

How the data were processed

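Libraries from total RNA of 24 whole kidneys were sequenced, and the authors trimmed reads with Trim Galore 0.6.3, aligned them to GRCm38 with STAR 2.5.3a and deposited raw read counts per Ensembl gene for 54532 genes. The strand setting of the counts is not given in the sources used here. Rows without a symbol (343) held at most 0.0261% of a library. Every per-sample column was used.

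No pair of libraries within a group differed by as little as sampling noise (chi-square per degree of freedom at least 8.45 over 39 pairs). Samples were grouped by genotype label. Counts were scaled to log2 CPM by library totals with a prior count of 2 (edgeR 4.0.16), and genes with a mean of at least -3 were tested by limma-trend (limma 3.58.1, R 4.3.3), with 6 group means over 24 libraries and two-sided tests. The script was tested on simulated data before use. For RC/- against RC/+, limma-trend recovered 58% of genes changed by 1 log2 unit and 71% of those changed by 2. Of the unchanged genes 0.022% passed. Alternatives were TMM factors, edgeR quasi-likelihood, DESeq2 1.42.0, no filter, fewer groups, sex (read from counts), the set of libraries 20 to 27, and single replicates left out. Leaving out libraries 20 to 27 was chosen after seeing the data. All 36 genes and the leading gene of each further list were named by rule. The members and lists were chosen with earlier results of these data known. Exon lengths and overlaps came from GENCODE M21, whereas the counts rest on Ensembl gene models of an earlier release. The names of the further myeloid genes that were lower are not reported here.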

Additional observations from a re-analysis of the deposited data

Results flagged for a closer look

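In groups of 5 mice, 6 values lay far from the others of their group among 108 groups of values examined, where chance gives about 1 in 20. Of these, 4 came from RC/- D53 replicate 24, which was the highest of its group: Cd52 at 6.88 CPM, Fcgr1 at 9.40 CPM, Mpeg1 at 56.9 CPM and Aif1 at 7.90 CPM. The others were Lyve1 at 2.35 CPM in RC/- D18 replicate 20 and Arg1 at 9.24 CPM in RC/- replicate 16.

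The cystic difference was smaller in the D18 line than in the unedited line for 26 genes by the interaction test. In log2 units the values were Laptm5 (-0.93), Cd53 (-0.81), Spi1 (-1.44), Csf1r (-0.38), Csf2ra (-0.68), Fcgr1 (-1.42), Fcgr3 (-1.52), Fcer1g (-1.33), Tyrobp (-1.43), Trem2 (-0.96), Adgre1 (-1.01), Itgam (-1.03), Cx3cr1 (-0.66), Ms4a7 (-1.33), Ms4a6c (-1.81), Cd68 (-1.32), Cd14 (-1.96), Mrc1 (-1.67), Msr1 (-2.05), Lyve1 (-1.81), Lyz2 (-1.91), Ctss (-0.85), Cybb (-0.88), Aif1 (-1.42), Gpnmb (-1.40) and Lgals3 (-1.93). Of 24 alternatives, Cybb lost its call in 19, Gpnmb in 18, Csf1r in 11, Csf2ra in 8 and Cd53 in 7, and 6 other genes lost theirs in 1 to 4.

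In the D53 line the same test passed for 18 genes, namely Laptm5 (-0.65), Cd53 (-0.75), Spi1 (-0.76), Fcgr1 (-1.15), Fcgr3 (-1.03), Fcer1g (-0.91), Tyrobp (-0.86), Adgre1 (-1.0), Itgam (-1.11), Ms4a7 (-1.39), Ms4a6c (-2.14), Cd68 (-1.13), Cd14 (-1.60), Mrc1 (-1.54), Msr1 (-2.0), Lyve1 (-1.56), Lyz2 (-1.35) and Lgals3 (-1.25). Of 23 alternatives, Cd53 lost its call in 19, Spi1 in 18, Lyve1 in 17, Fcgr1 in 10, Laptm5 in 7 and Tyrobp in 6, and 9 other genes lost theirs in 1 to 4. Both interaction tests use the RC/+ and RC/- libraries of the unedited line.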

How the results depend on the processing

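No paired analysis was possible because each replicate number occurs in 1 group only. Of the 36 genes, the number that passed stayed within 1.5 times its main value under TMM factors, DESeq2, no filter, sex as a covariate and only the compared groups, in every comparison. When a log2 change of 1 or more in size was also required, 20 genes passed in RC/- D18 against RC/-, 14 in RC/- D53 against RC/-, 1 in RC/- D53 against RC/+ D53 and 0 in RC/- D53 against RC/- D18. How many of all genes met this stricter rule was not counted, so these numbers cannot be set against a share. The set of libraries 20 to 27 as a covariate left 11 genes in RC/- D53 against RC/-, 1 in RC/- D53 against RC/+ D53 and 3 (Cd68, Cd14 and Lyz2) in the D53 interaction, and edgeR left 7 in RC/- D53 against RC/+ D53. Of all genes, in either direction, 1796, 287 and 403 passed in these covariate fits and 460 in this edgeR fit. Leaving out single replicates gave 4 to 14 genes in RC/- D53 against RC/+ D53, 0 to 1 in RC/- D53 against RC/- D18 and 10 to 22 in the D53 interaction, with 11 without RC/+ replicate 5 or RC/+ D53 replicate 11 and 10 without RC/+ D53 replicate 12. The cause of these shifts was not tested.

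In RC/- D53 against RC/+ D53, fold changes of 5 genes that passed in no setting changed sign. With the covariate the log2 values were -0.005 for Itgam, 0.401 for Ms4a6c and 0.057 for Folr2. Msr1 was at -0.028 with TMM factors, -0.039 with edgeR and -0.042 with DESeq2. Without single replicates Ms4a6c lay between -0.34 and 0.129, Cd163 between -0.213 and 0.554, Msr1 between -0.219 and 0.162 and Folr2 between -0.362 and 0.211. Single genes were not followed over the alternatives in the RC/+ comparisons, where the median of the 36 genes lay between -0.038 and 0.062 for D18 and between -0.041 and 0.047 for D53. Noncystic groups had 3 mice each, totals were 20.4 M counts or more, and what limited precision was not tested.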
